A study of Mus musculus with 23 samples.

Results

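The change in messenger RNA that follows CRISPR targeting of Sox6 was compared between 2 stages of mouse oligodendrocyte lineage cells. All libraries of the targeting experiment entered this comparison, 17 of the 23 in the series. The starting cells were oligodendrocyte progenitors, abbreviated OPCs, derived from epiblast stem cells of the lines EpiSC5 and 129O1 (mouse strains 129SvEv and 129S1/SvImJ, with the line of each library not used here) and sorted for CD140a and NG2. They were infected with lentivirus that carries Cas9 and 1 guide RNA, and selected for 96 hours in puromycin at 500 ng/mL. The cells are therefore pools of infected cells and not clones, and the controls carried Cas9, a non-targeting guide and the same selection. Targeted and control cells came from the same original batch of OPCs, per the labels.

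Cells then spent 60 hours in 1 of 2 media. OPC growth medium held the mitogens bFGF and PDGFA, each at 20 ng/mL. For differentiation-permissive medium the labels list noggin, IGF-1, cyclic AMP and NT3, no mitogen of OPC medium and no thyroid hormone T3. In OPC medium there were 3 control libraries, 2 with SOX6 guide 1 and 3 with SOX6 guide 2. In differentiation medium each of these groups had 3 libraries. Whether the libraries of a group were separate cultures is not given in the labels, and p-values cover the spread between libraries alone, which may be technical. The response in a medium is the mean of both guides minus the control, on the log2 scale. The stage difference, on which the text turns, is the response in differentiation medium minus the response in OPC medium, tested as an interaction term. Each medium has a count table of its own, and whether the tables were also batches cannot be told apart from the stage; each response is measured within its own table.

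SOX6 is a transcription factor of the SOXD group, which binds DNA through an HMG box and has no activation domain of its own. In the oligodendrocyte lineage it is known for holding progenitors in an immature state. Progenitors divide in the presence of mitogens, and on their withdrawal they leave the cell cycle and pass through a newly formed stage, marked by Bcas1 and Gpr17, before they make myelin. A response that differs between the media can mean that targeting acts at 1 stage only, acts at both with unequal size, or acts in opposite directions. Below, genes are grouped by the signs of the responses and by whether each response passed its test. Failing to pass in 1 medium does not separate action at 1 stage from action of unequal size.

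The guide sequences define the groups and are shown with the adjacent NGG motif (PAM) in capitals. Guide 1 matched chr7:115580612-115580631 (mm10) in coding exon 9 of 17 of Sox6, on the strand opposite to the transcript. Guide 2 matched chr7:115512747-115512766 in coding exon 14 of 17, on the transcript's strand. The non-targeting guide matched 0 genes exactly.
SOX6 guide 1: ttgacggaatgaactgtacgGGG
SOX6 guide 2: agaacacgctttgagaacctGGG
non-targeting guide: aagcctacttcaccggtcgg

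Library totals lay between 13124580 and 18551822 estimated counts. One library stood apart, guide 1 library B in differentiation medium (letters are those of the columns). On the second principal component it sat at 56.4, against -10.2 to 9.29 for the other 16 libraries, and the summed neuron markers were 1218 CPM there against 2220 and 2243 CPM in libraries A and C of its group. CPM are TMM-scaled counts relative to library size throughout. Compared with the rest of its group, guide 1 library B also deviated with transcript length (Spearman's rho -0.66 over 8467 genes). Libraries A and C of that group, compared in the same way, were at 0.58 and 0.63. In the OPC medium, control libraries A and C deviated with transcript length in opposite directions (Spearman's rho -0.47 and 0.49 over 8467 genes). Results without guide 1 library B, or without OPC control libraries A and C, are given for many counts and for some single genes. Leaving out OPC control libraries A and C changed the call of the stage difference for 38 of the 60 named genes. The text states that change for only some of them. The lineage factor Olig2 measured between 951 and 1672 CPM in all 17 libraries. Pdgfra, which encodes CD140a, was low in OPC medium at 6.58 to 25.4 CPM and measured 78.2 to 160 CPM in differentiation medium. Cspg4, which encodes NG2, measured 228 to 338 and 64.2 to 191 CPM. Mog, a marker of mature myelin, was at 0 in OPC medium and at most 0.422 CPM in differentiation medium. Pou5f1, the pluripotency factor, was at 0 in every library, and the microglia marker Aif1 reached at most 0.172 CPM.

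No targeted library reached the Sox6 level of a control in the same medium. In OPC medium it measured 165, 201 and 234 CPM in the controls, 88.9 and 75 CPM with guide 1 and 74.4, 67.4 and 86.4 CPM with guide 2. In differentiation medium the values were 417, 437 and 387 CPM in the controls, 259, 157 and 242 CPM with guide 1 and 255, 253 and 255 CPM with guide 2. The log2 response was -1.34 in OPC medium and -0.81 in differentiation medium. Their difference of 0.53 (SE 0.203, 95% interval 0.09 to 0.97) did not pass (edgeR adjusted p = 0.302). Without library B of guide 1 it was 0.62 and passed, with an edgeR adjusted p of 0.022.

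The response to targeting differed between the media for 239 of 14352 genes tested, a background of 1.67% (edgeR quasi-likelihood test, Benjamini-Hochberg adjusted p under 0.05). It was higher in differentiation medium for 130 genes (0.906%) and lower for 109 (0.759%), by at least 2-fold for 39 and 29 of them. Most of these genes responded in differentiation medium and did not pass the test in OPC medium: 194 of the 239, against 9 that passed in OPC medium alone, 30 in both and 6 in neither. The response passed for 1607 genes in differentiation medium (11.2%; 5.5% higher and 5.69% lower) and for 248 in OPC medium (1.73%; 0.843% higher and 0.885% lower). In absolute size it was larger in differentiation medium for 218 of the 239. The targeted and control libraries of differentiation medium did not overlap for 225 of the 239 (16.6% of all genes tested), and those of OPC medium did not overlap for 81 (11.2%). The 239 genes were chosen by a test on these same libraries, which favours such separation. These counts are therefore no further support. In bulk libraries, fewer cells of a type and less RNA per cell cannot be told apart.

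**Figure D1:**
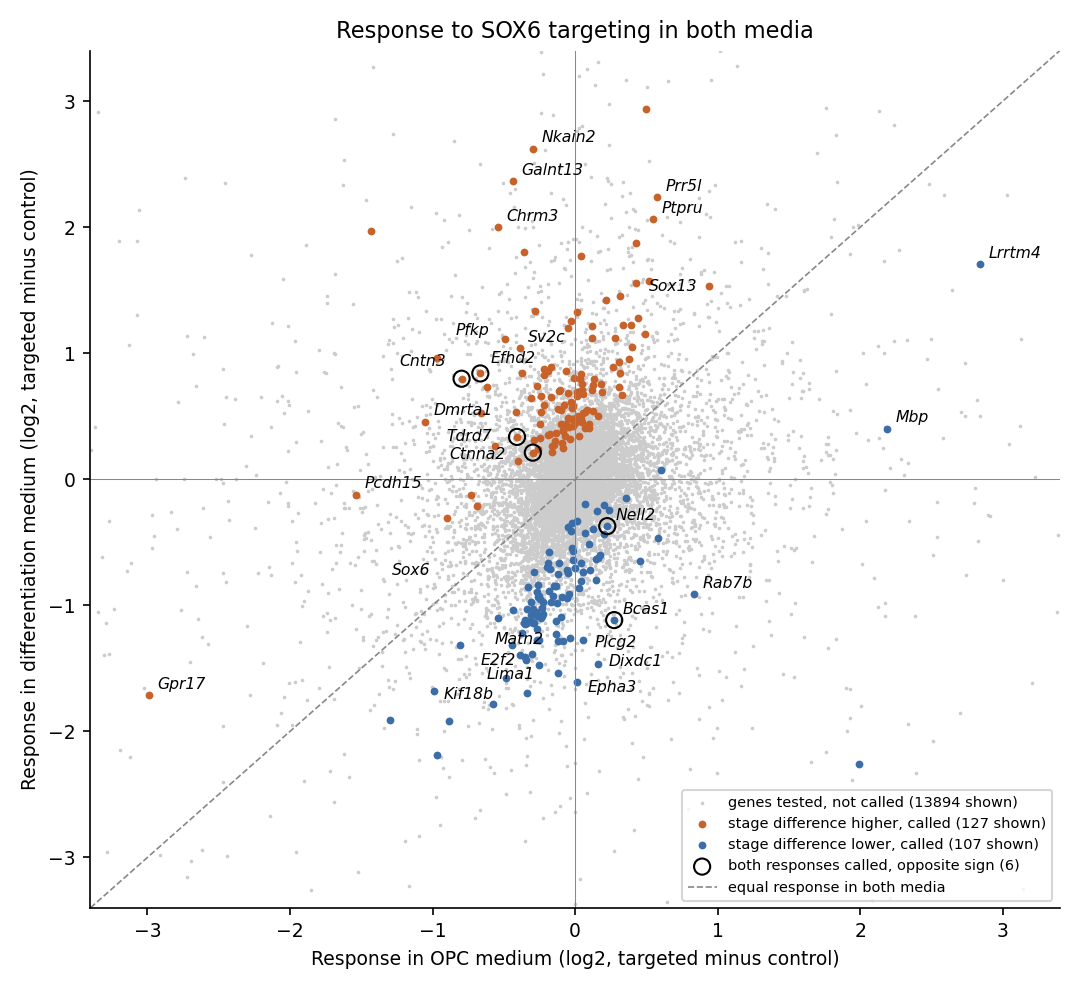
Log2 response to SOX6 targeting in OPC medium (horizontal axis) against that in differentiation medium (vertical axis) for the 14352 genes tested; each point is a gene, coloured where the stage difference passed the test, and 6 circled genes passed in both media with opposite signs. The coloured points spread along the vertical axis, and 5 genes past the test lie outside the axes, which end at 3.4.

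The 2 responses had opposite signs for 102 of the 239 genes, among them 72 of the 130 higher and 30 of the 109 lower. Choosing genes by the difference of the responses favours opposite signs, so the count of 102 does not measure how common reversals are. For 129 genes they had the same sign and the larger response was in differentiation medium, and for 8 they had the same sign and the larger was in OPC medium. For 6 genes both responses passed the test by themselves with opposite signs (0.0418% of genes tested). Bcas1 and Nell2 rose in OPC medium and fell in differentiation medium. Efhd2, Tdrd7, Ctnna2 and Cntn3 fell in OPC medium and rose in differentiation medium. The number of such genes was 23 without guide 1 library B and 0 without OPC control libraries A and C, and it was between 2 and 6 without any 1 of the other 16 libraries. Both calls with opposite signs held in 27 of the 28 alternatives for Efhd2 and in 25 for Tdrd7, against 17 for Ctnna2, 16 for Bcas1, 15 for Nell2 and 8 for Cntn3. The stage differences themselves are given gene by gene below.

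Bcas1, at chr2:170346991-170427845 (mm10), marks newly formed oligodendrocytes. In OPC medium it measured 87.7, 93.2 and 89.8 CPM in the controls, 105 and 108 CPM with guide 1 and 111, 105 and 119 CPM with guide 2. In differentiation medium it measured 877, 862 and 891 CPM in the controls, 384, 392 and 342 CPM with guide 1 and 437, 455 and 424 CPM with guide 2. Every targeted library was thus above the controls in the first medium and below them in the second. The log2 responses were 0.27 (SE 0.0595) and -1.12 (SE 0.054), and the stage difference was -1.39 (SE 0.0815, edgeR adjusted p = 1.1e-06). The call of the stage difference held under all 28 alternatives tried. The rise in OPC medium was less firm: Bcas1 was not among the genes of opposite response in 12 of them, among these the length offset, the fit without OPC control libraries A and C, and the fits without any 1 of 7 libraries of OPC medium (all 3 controls, both of guide 1, and A and C of guide 2).

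Nell2, which encodes a secreted glycoprotein with EGF-like repeats, lies at chr15:95075230-95528559. The controls measured 413, 421 and 421 CPM in OPC medium, where guide 1 gave 457 and 473 CPM and guide 2 gave 534, 506 and 505 CPM. After differentiation the controls were at 1176, 1205 and 1199.7 CPM, guide 1 at 845, 924 and 884 CPM and guide 2 at 1009, 926 and 953 CPM. Again no targeted library overlapped the controls, on either side. Its stage difference of -0.60 (SE 0.0686, edgeR adjusted p = 0.000413) was made of a response of 0.23 in OPC medium and one of -0.37 in differentiation medium. Nell2 was not among the genes of opposite response without any 1 of 10 libraries, all 8 of OPC medium and differentiation control libraries B and C.

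Efhd2, at chr4:141858142-141874920, encodes the calcium- and actin-binding protein swiprosin-1 and was the largest reversal in the other direction among genes of at least 10 CPM. OPC controls were at 21.6, 19.8 and 17.9 CPM, guide 1 at 12.5 and 11.3 CPM and guide 2 at 14.6, 12.9 and 11.6 CPM. Differentiation controls were at 41.3, 42.9 and 42.8 CPM, guide 1 at 72.7, 86 and 69.1 CPM and guide 2 at 73, 77.6 and 76.1 CPM. All targeted libraries lay below the controls in OPC medium and above them in differentiation medium. The responses of -0.66 and 0.84 gave a stage difference of 1.5 (SE 0.13, edgeR adjusted p = 3.05e-05), which held under all 28 alternatives; the reversal was not called without OPC control libraries A and C.

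Tdrd7 (chr4:45965334-46034761), a Tudor domain protein of RNA granules, had controls of 109, 105 and 105 CPM and targeted libraries of 76.5 to 86.3 CPM in OPC medium. In differentiation medium the controls were at 106 to 113 CPM and the targeted libraries at 131 to 149 CPM. The control level was thus much the same in both media while the targeted cells moved to opposite sides of it, with a stage difference of 0.74 (SE 0.083, edgeR adjusted p = 0.000337). Ctnna2 (chr6:76881637-77979699), the neuronal alpha-catenin that links cadherins to actin, was at 44.9 to 49.4 CPM in OPC controls and 36.2 to 41.3 CPM in targeted OPCs. It then measured 176 to 178 CPM in differentiation controls and 190.3 to 227 CPM in targeted cells. The stage difference was 0.51 (SE 0.0799, edgeR adjusted p = 0.00452). It did not pass without OPC control libraries A and C (edgeR adjusted p = 0.0634). Cntn3 (chr6:102162655-102573101), a contactin adhesion molecule, is the sixth gene; it stayed under 10 CPM and was named as a list member. Its levels were 4.46 to 6.88 CPM in OPC controls, 2.93 to 3.55 CPM in targeted OPCs, 2.09 to 2.96 CPM in differentiation controls and 3.57 to 4.52 CPM in targeted cells. The stage difference was 1.59 (SE 0.269, edgeR adjusted p = 0.00715).

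**Figure D2:**
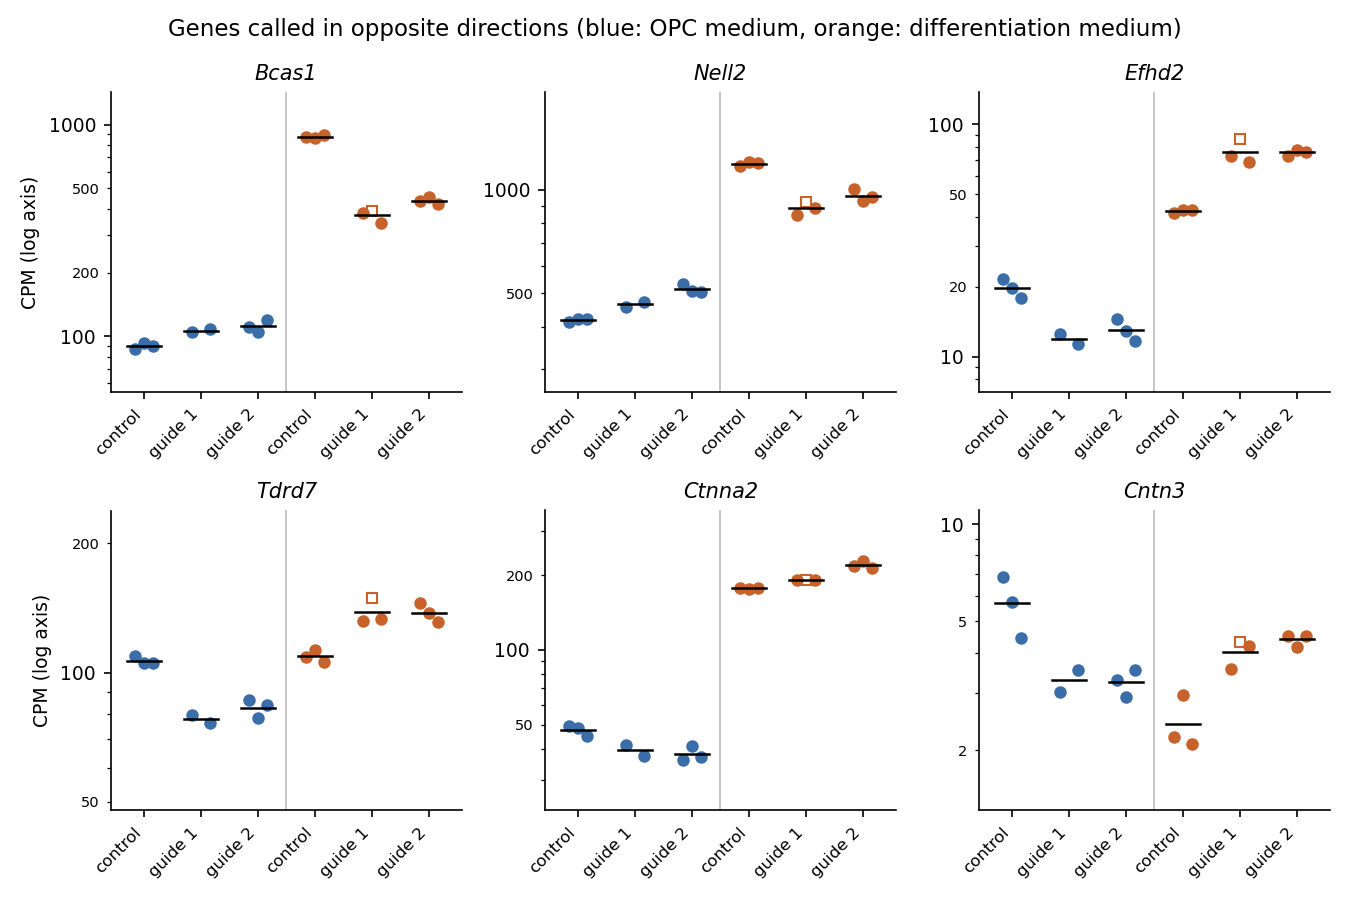
CPM (log axis) of the 6 genes that passed in both media with opposite signs, in each of the 17 libraries by group; points are libraries, bars are group means, and the open square is guide 1 library B in differentiation medium. Bcas1 goes from 87.7 to 93.2 CPM in OPC controls to 105 to 119 CPM in targeted OPCs, and from 862 to 891 CPM down to 342 to 455 CPM in differentiation medium.

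For the 194 genes whose response passed in differentiation medium and not in OPC medium, the stage difference was higher for 106 and lower for 88. Lima1, which encodes the actin filament stabilizer EPLIN, is one of the lower genes (chr15:99778470-99875456). OPC controls were at 76.2, 72.2 and 80.6 CPM, guide 1 at 66.5 and 63.7 CPM and guide 2 at 69.9, 80.6 and 76.1 CPM. In differentiation medium the controls were at 238, 255 and 242 CPM, guide 1 at 80.2, 65.4 and 80.5 CPM and guide 2 at 97.4, 88.6 and 97.1 CPM. Targeted and control libraries overlapped in OPC medium and lay far apart in differentiation medium. The response was -0.12 (adjusted p = 0.669) and then -1.54, a stage difference of -1.42 (SE 0.107, edgeR adjusted p = 1.29e-05).

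Nkain2, whose protein binds a subunit of the sodium pump, did the reverse (chr10:31689310-32890462). OPC controls were at 2.65, 2.5 and 2.12 CPM, guide 1 at 2.29 and 2.1 CPM and guide 2 at 1.86, 1.36 and 2.11 CPM. Differentiation controls were at 3.13, 3.72 and 3.82 CPM, guide 1 at 20.4, 19.1 and 23.6 CPM and guide 2 at 24.7, 23.5 and 20.4 CPM. The libraries of OPC medium overlapped, and in differentiation medium all 6 targeted libraries were above the controls. The stage difference was 2.92 (SE 0.223, edgeR adjusted p = 1.29e-05), from a response of -0.29 (adjusted p = 0.632) and one of 2.62. Lima1 and Nkain2 both held under all 28 alternatives.

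RefSeq promoter entries (GRCm38.p6, 250 bases before to 50 after a start) are shown for these genes, because they are the marker genes with the largest stage difference in each direction. Capitals mark the SOX core motif ACAAT, searched on both strands: it occurred 1 time in the Lima1 entry (chr15:99820100-99820399, minus strand) and 0 times in the Nkain2 entry (chr10:32889866-32890165, minus strand). A match is a description of letters and not a binding site. The entries also differ in position. Nkain2's lies near the gene's 5' end at 32890462, whereas Lima1's lies within the gene, away from its 5' end at 99875456. Bcas1 and Nell2 had no entry.
Lima1: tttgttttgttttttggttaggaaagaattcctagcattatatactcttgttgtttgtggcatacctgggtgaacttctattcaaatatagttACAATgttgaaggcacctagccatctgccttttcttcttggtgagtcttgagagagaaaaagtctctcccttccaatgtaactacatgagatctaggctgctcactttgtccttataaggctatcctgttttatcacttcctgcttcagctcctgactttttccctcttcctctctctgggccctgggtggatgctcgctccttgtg
Nkain2: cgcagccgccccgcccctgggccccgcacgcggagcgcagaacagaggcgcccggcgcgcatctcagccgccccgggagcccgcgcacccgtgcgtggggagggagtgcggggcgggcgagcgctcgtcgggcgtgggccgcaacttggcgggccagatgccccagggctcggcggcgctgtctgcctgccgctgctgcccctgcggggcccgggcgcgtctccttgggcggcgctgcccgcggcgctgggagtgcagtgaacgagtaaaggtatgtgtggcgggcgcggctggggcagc

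Among genes of at least 10 CPM in their highest group, the 10 largest positive stage differences also took in Col9a1, Galnt13, Chrm3, Prr5l, Pfkp, Ptpru, Dmrta1 and Sv2c. Galnt13, an enzyme that starts O-linked glycans, measured 0.36 to 1.37 CPM in all libraries of OPC medium. In differentiation medium it was at 5.91 to 6.15 CPM in controls and 22.6 to 36.6 CPM in targeted cells, with a stage difference of 2.80 (SE 0.312, edgeR adjusted p = 0.000337). Chrm3, the muscarinic acetylcholine receptor M3, was higher in OPCs, at 11.9 to 15.1 CPM in controls and 8.19 to 12.9 CPM in targeted cells. It measured 0.696 to 1.32 CPM in differentiation controls, against 2.4 to 4.85 CPM with either guide (stage difference 2.54, SE 0.315, edgeR adjusted p = 0.000781). The response was -0.54 (adjusted p = 0.299) in OPC medium and 2.00 in differentiation medium.

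Col9a1, a collagen IX chain, had the largest fitted stage difference of the named genes at 7.16 (SE 0.867, edgeR adjusted p = 0.000647). Its differentiation controls were almost empty, at 0.522, 0.063 and 0.072 CPM, so the fitted size rests on a few counts. Its targeted libraries were scattered, from 7.5 to 34.9 CPM with guide 1 and from 7.28 to 25.4 CPM with guide 2, and the call did not pass under limma-voom (adjusted p = 0.111). Pfkp, the platelet-type phosphofructokinase of glycolysis, differed by 1.6, Ptpru, a receptor tyrosine phosphatase, by 1.51, and Sv2c, a synaptic vesicle glycoprotein, by 1.43. Prr5l, a partner of the kinase complex mTORC2, differed by 1.66 (SE 0.241) with 11.2 to 17.6 CPM in OPC controls and only 1.91 to 2.09 CPM in differentiation controls. Dmrta1, a DM domain transcription factor, differed by 1.51 (SE 0.344, edgeR adjusted p = 0.041) and did not pass without 14 of the 17 libraries taken singly. Its responses of -1.05 in OPC medium and 0.46 in differentiation medium did not pass by themselves (edgeR adjusted p = 0.0605 and 0.245).
Ptpru did not pass without differentiation control library A (edgeR adjusted p = 0.0524) and Sv2c without differentiation control library C (edgeR adjusted p = 0.0504). Prr5l did not pass with effective transcript lengths as an offset (edgeR adjusted p = 0.521).

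The 10 most negative stage differences held Mbp, Rab7b, Dixdc1, Epha3, Lima1, Bcas1, Kif18b, Plcg2, Matn2 and E2f2. Dixdc1, a DIX domain protein of Wnt signalling, measured 13.9 to 20 CPM in OPC controls and 15.4 to 22.7 CPM in targeted OPCs. It measured 60.9 to 72.8 CPM in differentiation controls and 16.3 to 28.6 CPM in targeted cells, a stage difference of -1.63 (SE 0.223, edgeR adjusted p = 0.00158). Targeted cells in differentiation medium therefore stood near the level of OPCs for this gene. Plcg2, a phospholipase C, had 3.08 to 4.62 CPM in OPC controls and 3.79 to 4.76 CPM in targeted OPCs, then 45.8 to 46.2 CPM in differentiation controls and 15.5 to 23.2 CPM in targeted cells. Matn2, the matrix protein matrilin-2, had 34.3 to 36.7 CPM in differentiation controls and 11.9 to 18.1 CPM in targeted cells, while its OPC libraries overlapped at 9.74 to 14.8 CPM. Epha3, an ephrin receptor, had 24.2 to 27.1 CPM in differentiation controls and 6.33 to 9.48 CPM in targeted cells, with 1.5 to 2.7 CPM in OPC medium. The stage differences were -1.33 (SE 0.172) for Plcg2, -1.22 (SE 0.154) for Matn2 and -1.62 (SE 0.24) for Epha3, with edgeR adjusted p of 0.00105, 0.000882 and 0.00276. With the transcript length offset, Dixdc1 (edgeR adjusted p = 0.111) and Epha3 (edgeR adjusted p = 0.0993) did not pass. The small GTPase Rab7b reached at most 11 CPM and differed by -1.75 (SE 0.36, edgeR adjusted p = 0.0245), a call that did not pass without 7 of the 17 libraries taken singly.

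For 8 genes the fitted log2 responses had the same sign, and the smaller one was in differentiation medium. Lrrtm4, Omg, Kit, Mapk8ip2 and Acot11 are named only as members of this class, after their values were seen. In differentiation medium the responses of Pcdh15, Acot11, Kit and Mapk8ip2 did not pass (edgeR adjusted p = 0.773, 0.694, 0.359 and 0.0503). A kept sign was thus not shown for them. In CPM the change was larger in differentiation medium for 5 of the 8: Mbp (2.07 in OPC medium, then 229), Gpr17 (-44.7, then -1132), Lrrtm4 (5.44, then 13.3), Omg (-6.11, then -12.2) and Pcdh15 (-7.02, then -7.13). Mbp, a main protein of compact myelin, was close to 0 in OPC controls, at 0.358, 0.749 and 0.566 CPM. It measured 2.12 and 3.61 CPM with guide 1 and 2.46, 2.36 and 2.35 CPM with guide 2. In differentiation medium it was at 649.6, 725 and 739.8 CPM in controls, 876, 913 and 822 CPM with guide 1 and 976, 1021 and 995 CPM with guide 2. Targeted libraries were above the controls in both media, but the response of 2.19 shrank to 0.40, a stage difference of -1.79 (SE 0.245, edgeR adjusted p = 0.00158). Mbp's call did not pass under limma-voom (adjusted p = 0.0501) or without OPC control libraries A and C (-1.39, edgeR adjusted p = 0.131).

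Gpr17, a receptor of newly formed oligodendrocytes, measured 39.6, 59.8 and 54.4 CPM in OPC controls against 4.69 to 8.19 CPM in targeted OPCs. In differentiation medium it was at 1683, 1642 and 1598 CPM in controls, 484, 306 and 476 CPM with guide 1 and 618, 575 and 592 CPM with guide 2. It fell in both media, by a log2 response of -2.99 and then -1.71, so that the stage difference was positive at 1.28 (SE 0.22, edgeR adjusted p = 0.00829). Gpr17 lies within the span of Lims2, and the kit named in the labels does not mark strand, so reads of the pair cannot be told apart by strand. Pcdh15, a protocadherin found in OPCs, was at 9.32 to 11.7 CPM in OPC controls and 2.75 to 4.86 CPM in targeted OPCs. In differentiation medium it overlapped, at 89.7 to 91.4 CPM in controls and 85.7 to 103 CPM in targeted libraries other than guide 1 library B, which was at 45.3 CPM. Its stage difference was 1.41 (edgeR adjusted p = 0.029), 1.55 without that library, and it did not pass without 11 of the other libraries taken singly. Without guide 1 library B the Pcdh15 response in differentiation medium was 0.02 and not -0.12, so its shared sign rested on that library. Lrrtm4, a synaptic leucine-rich repeat protein, rose by 2.84 and by 1.71 (stage difference -1.13, edgeR adjusted p = 0.0341). Of the remaining 4, the responses in OPC and differentiation medium were -0.90 and -0.31 for the myelin glycoprotein Omg, -0.73 and -0.12 for the receptor Kit, -0.69 and -0.21 for the scaffold Mapk8ip2, and 0.60 and 0.07 for the thioesterase Acot11.

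**Figure D3:**
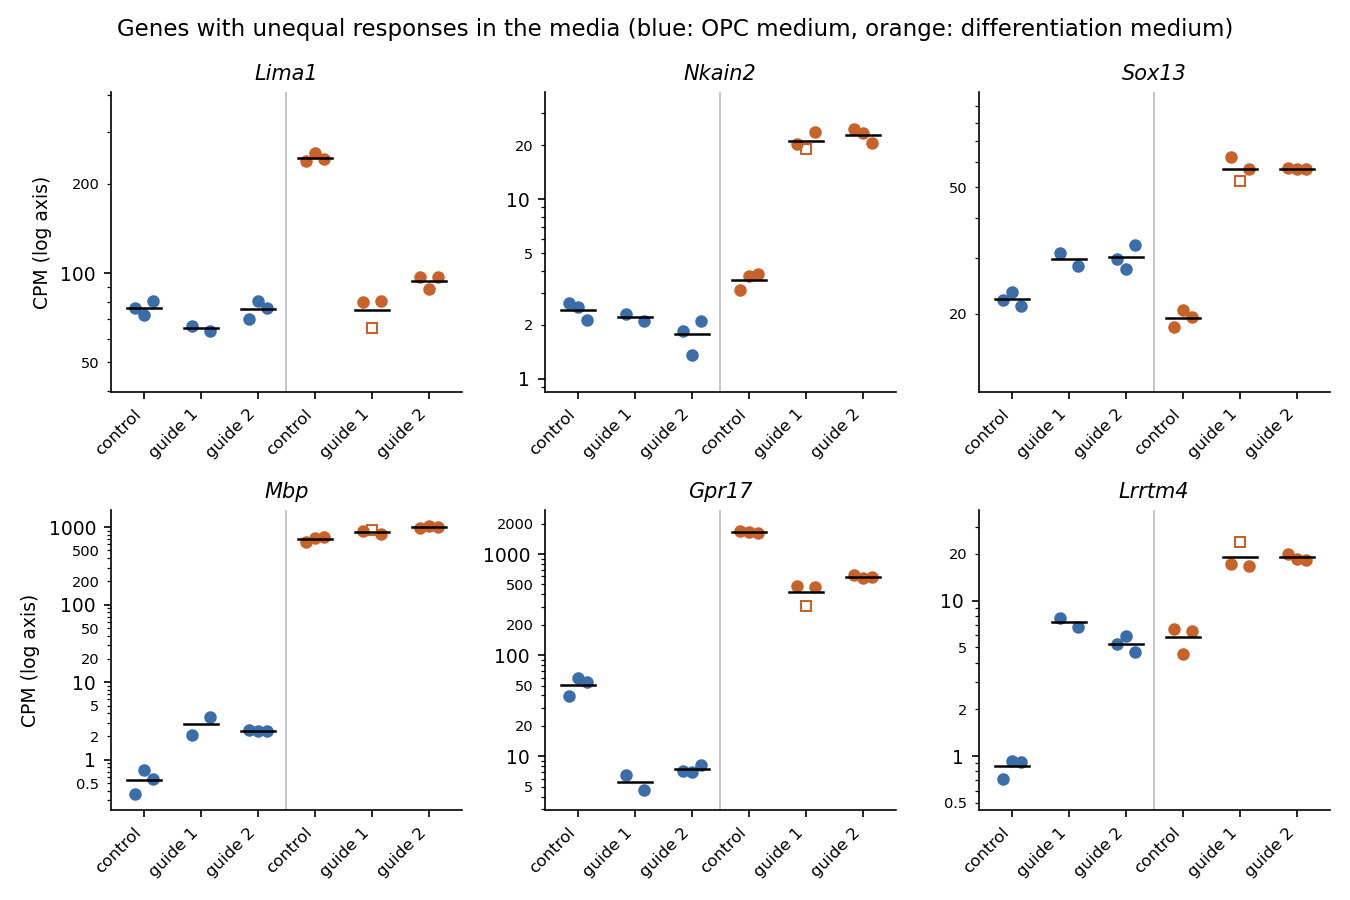
CPM (log axis) of Lima1, Nkain2, Sox13, Mbp, Gpr17 and Lrrtm4 in each of the 17 libraries by group; points are libraries, bars are group means, and the open square is guide 1 library B in differentiation medium. Lima1 and Nkain2 separate only in differentiation medium (238 to 255 against 65.4 to 97.4 CPM, and 3.13 to 3.82 against 19.1 to 24.7 CPM), whereas Gpr17 is lower with targeting in both media.

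The gene lists below are described by counts beside the background of 1.67% and by their median stage difference, against a median of 0.02 over all genes tested. The lists were chosen with results of these data known and are no independent evidence; where few members passed, all are named. Of 31 lists, mitosis had the most genes past the test. None of the 24 mitosis genes tested was higher and 9 were lower: Cdc25c, Mki67, Kif23, Bub1b, Kif11, Top2a, Kif20a, Cenpf and Tpx2. The median stage difference was -0.78, and 23 of the 24 values were negative. In OPC medium 0 of the 24 passed by edgeR (11 at an unadjusted p under 0.05, 4 by DESeq2 and 1 by limma-voom), and in differentiation medium 19 fell. Without guide 1 library B of differentiation medium, 6 passed in OPC medium by edgeR. Bub1b, a spindle checkpoint kinase, measured 136 to 167 CPM in OPC controls, 94.8 and 103 CPM with guide 1 and 144 to 152 CPM with guide 2. It measured 18.7 to 21.7 CPM in differentiation controls, 9.35 to 9.87 CPM with guide 1 and 7.96 to 9.27 CPM with guide 2. Guide 2 libraries thus overlapped the controls in OPC medium and no targeted library did in differentiation medium (stage difference -0.85, SE 0.11, edgeR adjusted p = 0.00111). Mki67, the proliferation antigen Ki-67, differed by -1.02, the mitotic phosphatase Cdc25c by -1.16 and the cytokinesis kinesin Kif23 by -0.86. Mki67 and Cdc25c each did not pass without 11 of the 17 libraries taken singly, while Kif23 and Bub1b passed without each in turn.

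The scale matters for these genes. The summed level of the list was 4237 to 4713 CPM in OPC controls, 3173 to 3239 CPM with guide 1 and 3950 to 4569 CPM with guide 2. It was 674 to 692 CPM in differentiation controls, 334 to 393 CPM with guide 1 and 310.4 to 338 CPM with guide 2. The proportional drop was thus larger in differentiation medium, while in CPM the guide 1 libraries of OPC medium lost more. Of the 239 genes, 36 had a stage difference of the other sign in CPM, among them Bub1b, Mki67, Kif23, Kif18b, E2f2, Mcm5 and Ccnd1. The count of 9 was 13 without guide 1 library B, 3 with the length offset and 3 without OPC control libraries A and C; it was 5 without OPC control library B or differentiation control library A. Among related genes, the mitotic kinesin Kif18b differed by -1.36 (edgeR adjusted p = 0.00231) and the cell cycle factor E2f2 by -1.22 (edgeR adjusted p = 0.00389). Of 26 DNA replication genes, 1 was lower, the helicase subunit Mcm5 (-0.68, edgeR adjusted p = 0.0125), and the median was -0.09.

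The integrated stress response raises amino acid supply through the factor ATF4. Of 19 genes tested, 5 were higher and 0 lower: Trib3, Chac1, Slc7a5, Slc3a2 and Shmt2, with a list median of 0.62 and 14 values above 0. Slc7a5, the light chain of a large amino acid transporter, measured 210.2 to 223 CPM in OPC controls, 204 and 207 CPM with guide 1 and 209 to 236 CPM with guide 2. It measured 264, 261 and 263 CPM in differentiation controls, 455, 398 and 473 CPM with guide 1 and 508, 455 and 463 CPM with guide 2. The OPC libraries overlapped and the others did not, with a stage difference of 0.81 (SE 0.0894, edgeR adjusted p = 0.000332) that held under all 28 alternatives. Slc3a2, the heavy chain of the same transporter, differed by 0.62, the glutathione-degrading enzyme Chac1 by 0.84 and the pseudokinase Trib3 by 1.22. Those 3 calls depended on single libraries: Slc3a2 and Trib3 did not pass without 14 of the 17 taken singly, and Chac1 without 8. The count of 5 ranged from 1 to 7 with 1 library left out, with 7 without guide 1 library B. It was 3 with scaling to library totals, 1 by limma-voom, 1 with the length offset and 1 without OPC control libraries A and C.

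Of 24 cholesterol synthesis genes, 3 were higher and 0 lower, and the median was 0.44. In differentiation medium 10 rose; in OPC medium 0 passed by edgeR (2 at an unadjusted p under 0.05, 0 by DESeq2 and 0 by limma-voom). Stard4, which carries cholesterol between membranes, was at 151 to 179 CPM in OPC controls and 153 to 161 CPM in targeted OPCs. It was at 121 to 126 CPM in differentiation controls and 155 to 178 CPM in targeted cells, so only the second medium separated the libraries (stage difference 0.45, SE 0.0819, edgeR adjusted p = 0.0116). The demethylase Cyp51 differed by 0.65 and the reductase Dhcr7, which makes cholesterol from its last precursor, by 0.45. Cyp51 did not pass without 12 of the 17 libraries taken singly, and Dhcr7 without 16. Of 21 fatty acid and sphingolipid genes, the desaturases Fads1 (0.34) and Fads2 (0.31) were higher. The 3 cholesterol genes became 7 without guide 1 library B, between 1 and 3 without any 1 other library, 2 with library totals, and 0 with the length offset or without OPC control libraries A and C. The count of 2 desaturases became 0 with library totals or without OPC control libraries A and C, 1 with the length offset and 4 without guide 1 library B. Leaving out any 1 of 12 libraries ended the Fads1 call and any 1 of 10 the Fads2 call.

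**Figure D4:**
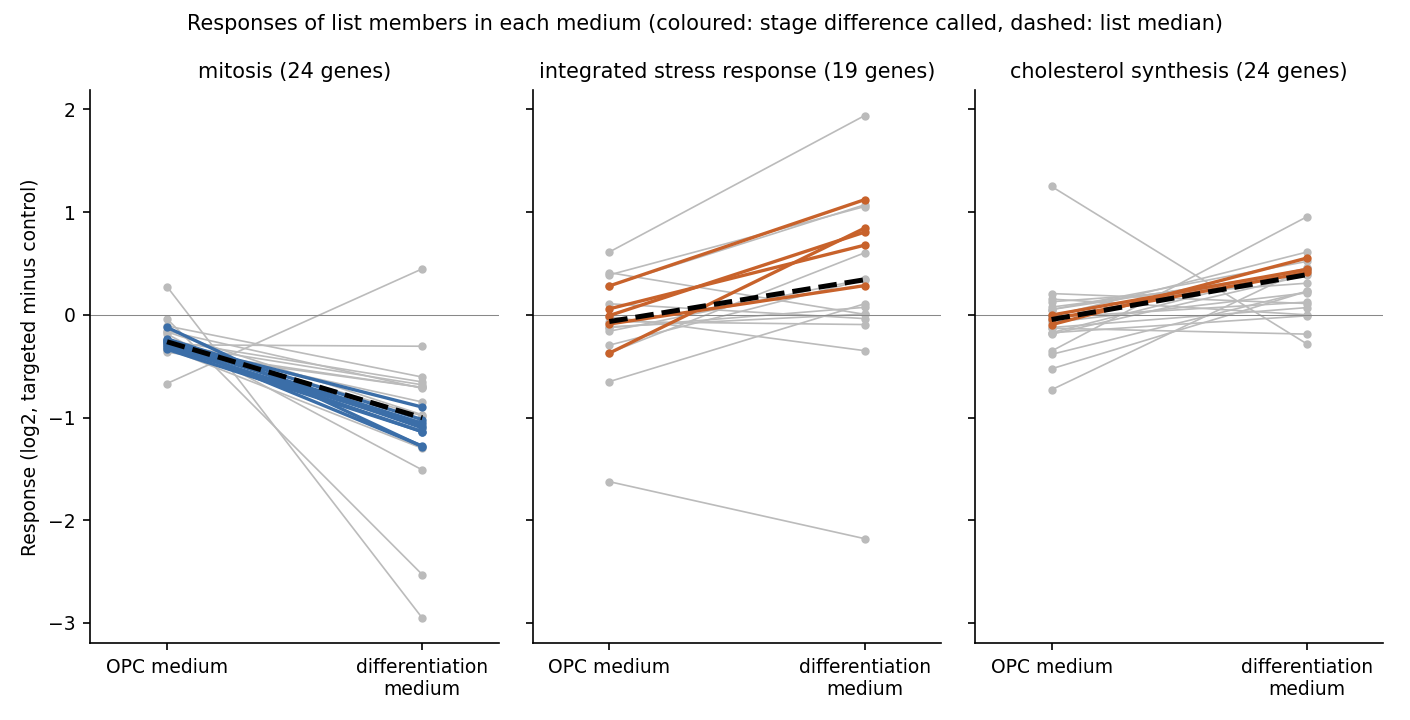
Log2 responses to SOX6 targeting in OPC and in differentiation medium, joined by a line for each tested gene of the mitosis (24), integrated stress response (19) and cholesterol synthesis (24) lists; coloured lines are genes whose stage difference passed the test. The medians go from -0.26 to -1.0 for mitosis, from -0.07 to 0.34 for the stress response and from -0.05 to 0.39 for cholesterol synthesis.

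Among signalling lists, ERK feedback had 4 of 15 genes past the test. Spry1 and Spry4, which restrain receptor tyrosine kinase signalling, and Phlda1 were higher, and the cyclin Ccnd1, which drives entry into the cell cycle, was lower. Spry4 did not pass without 12 of the 17 libraries taken singly, and Phlda1 without 13. Spry1 measured 258 to 284 CPM in all 8 libraries of OPC medium. It measured 57.2 to 64.3 CPM in differentiation controls and 92.3 to 111 CPM in targeted cells, a stage difference of 0.68 (SE 0.0811, edgeR adjusted p = 0.000602). The OPC libraries of all groups overlapped (response 0.01, adjusted p = 0.985), and in differentiation medium every targeted library was above the controls. Ccnd1 fell in both media and further in the second, with 491 to 569 CPM in OPC controls, 328 to 471 CPM in targeted OPCs, 99.2 to 107 CPM in differentiation controls and 33.9 to 48.1 CPM in targeted cells. Its responses were -0.45 and -1.31, and the stage difference of -0.87 (SE 0.0912, edgeR adjusted p = 0.000219) held under all 28 alternatives. The count of 4 was 7 without guide 1 library B and between 2 and 5 without any 1 other library, and it was 2 with library totals, with the length offset or without OPC control libraries A and C.

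Of 20 Notch pathway genes, the ligand Dll1 and the feedback inhibitor Nrarp were higher and the ligand Dll3 was lower. Dll1 measured 109 to 134 CPM in OPC controls and 126 to 149 CPM in targeted OPCs, then 148 to 151 CPM in differentiation controls and 228 to 263 CPM in targeted cells. Its stage difference was 0.51 (SE 0.0865, edgeR adjusted p = 0.00768). Dll3, which acts inside the cell and blocks Notch there, fell in both media, from 42.8 to 43.9 CPM in controls to 15.9 to 19.5 CPM in OPC medium, and from 109.6 to 113 CPM to 24.2 to 34.1 CPM in differentiation medium. The fall was the larger in differentiation medium, -1.91 against -1.30 (stage difference -0.61, SE 0.107, edgeR adjusted p = 0.00988). Nrarp differed by 0.59 (edgeR adjusted p = 0.0334) and did not pass without 12 of the 17 libraries taken singly. Of 19 BMP pathway genes, the ligand Bmp2 was higher, with at most 0.358 CPM in OPC medium, 1.83 to 2.09 CPM in differentiation controls and 6.67 to 8.34 CPM in targeted cells; its fitted stage difference of 3.4 (edgeR adjusted p = 0.0213) rests on few reads in OPC medium and did not pass without any 1 of 4 libraries. The 3 Notch genes past the test were 5 without guide 1 library B, 1 with the length offset and 1 without OPC control libraries A and C. Of 15 Wnt genes, 0 passed by edgeR (1 at an unadjusted p under 0.05, 0 by DESeq2 and 0 by limma-voom).

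Of 22 newly formed oligodendrocyte genes, Gpr17 was higher, and Bcas1, Parvb, Sirt2 and Fyn were lower, with a median of -0.07 (0.04 with the length offset). Parvb, a focal adhesion protein, measured 28 to 36.5 CPM in all of OPC medium, 125 to 130.4 CPM in differentiation controls and 44.7 to 65.9 CPM in targeted cells (stage difference -0.99, SE 0.119, edgeR adjusted p = 0.000602). The deacetylase Sirt2, which is abundant in myelin, differed by -0.52 (SE 0.0773, edgeR adjusted p = 0.00296). The summed level of this list was 1890.4 to 1979 CPM in all 8 libraries of OPC medium. In differentiation medium it was 5605 to 5719 CPM in controls, 3266 to 3342 CPM with guide 1 and 3613 to 3725 CPM with guide 2. Without OPC control libraries A and C, 3 genes of the list passed. Of 27 genes of myelin and mature oligodendrocytes, 0 were higher and Mbp was lower, with a median of 0.36 and 20 of the 27 values above 0. DESeq2 called 2 higher and 5 lower, limma-voom and the fit without OPC control libraries A and C called 0, and up to 4 passed with 1 library left out. The median was 0.24 without guide 1 library B and 0.13 without OPC control libraries A and C. Of 21 progenitor genes, Pcdh15 was higher, and 3 passed without guide 1 library B. Among 15 differentiation factors 0 passed by edgeR (3 at an unadjusted p under 0.05, 1 by DESeq2 and 0 by limma-voom).

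**Figure D5:**
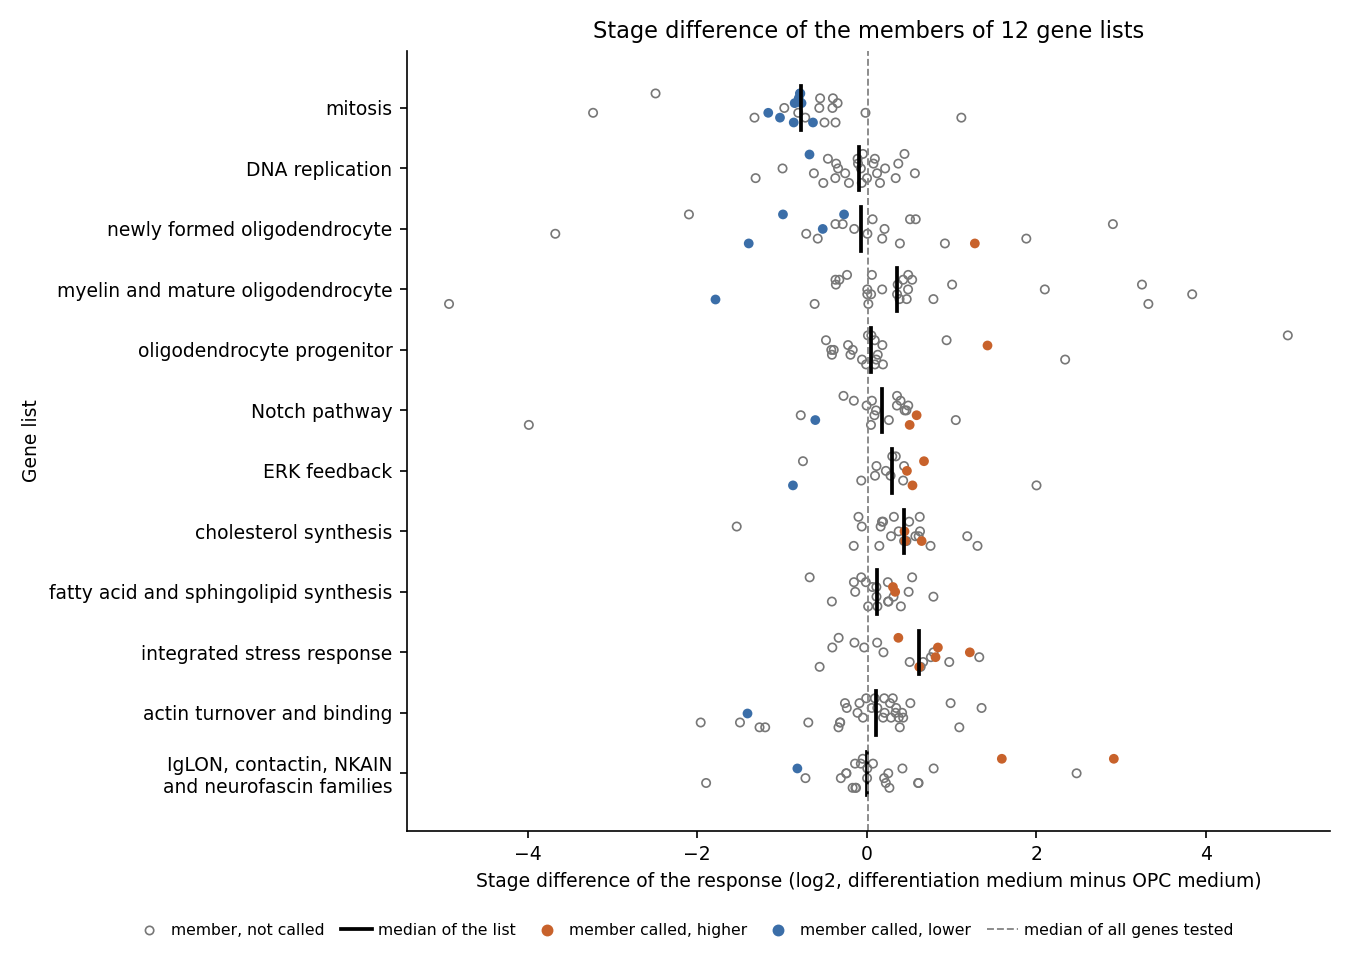
Log2 stage difference of the tested members of 12 gene lists; each point is a gene, filled where it passed the test, and a line marks the list's median. Mitosis lies mostly below 0 (median -0.78), and the integrated stress response (0.62) and cholesterol synthesis (0.44) mostly above it.

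Sox13, a SOXD paralogue of Sox6, was the 1 of 13 SOX factors past the test, and the 1 of 21 progenitor or inhibitory factors. OPC controls were at 22.1, 23.4 and 21.2 CPM, guide 1 at 31 and 28.4 CPM and guide 2 at 29.9, 27.7 and 33 CPM. Differentiation controls were at 18.2, 20.5 and 19.5 CPM, guide 1 at 62.4, 52.4 and 57.1 CPM and guide 2 at 57.4, 57.1 and 57 CPM. It rose in both media without overlap, by 0.43 and then 1.56, a stage difference of 1.13 (SE 0.112, edgeR adjusted p = 0.000127) that held under all 28 alternatives. Without guide 1 library B, 4 of the SOX factors and 7 of the progenitor or inhibitory factors passed.

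Lima1 was the 1 of 34 actin genes past the test. Of 25 tubulin and microtubule genes the beta-tubulin Tubb6 was higher (1.01, edgeR adjusted p = 0.0193), of 31 axon guidance genes the netrin receptor Unc5b (1.09, edgeR adjusted p = 0.029), and of 27 matrix genes Col9a1 and Sparcl1. Sparcl1, a secreted relative of SPARC, measured 465 to 487 CPM in OPC controls, 568 to 611 CPM in targeted OPCs, 953 to 1005 CPM in differentiation controls and 1511 to 2106 CPM in targeted cells (0.63, SE 0.102, edgeR adjusted p = 0.00582). Of 26 IgLON, contactin, NKAIN and neurofascin genes, Nkain2 and Cntn3 were higher and the IgLON adhesion molecule Opcml was lower (-0.82, edgeR adjusted p = 0.0193). In the p53 list Btg2, an antiproliferative factor, was the 1 of 16 past the test (-0.70, SE 0.114, edgeR adjusted p = 0.00582). In the interferon list Rsad2, an antiviral enzyme, was the 1 of 12 (-1.09, edgeR adjusted p = 0.0247). Without guide 1 library B, 4 actin, 5 tubulin, 3 axon guidance and 7 matrix genes passed. Among single libraries, leaving out any 1 of 4 ended the Tubb6 call, any 1 of 12 the Unc5b call, any 1 of 6 the Opcml call and any 1 of 7 the Rsad2 call. Of 24 potassium and sodium channel genes 0 passed by edgeR (3 at an unadjusted p under 0.05, 0 by DESeq2 and 0 by limma-voom). Of 18 glutamate receptor genes 0 passed by edgeR (2 at an unadjusted p under 0.05, 1 by DESeq2 and 0 by limma-voom).

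Markers of other cell types were followed in the same way. Of 16 astrocyte markers 0 passed by edgeR (3 at an unadjusted p under 0.05, 2 by DESeq2 and 0 by limma-voom). Their summed level was higher in every targeted library, from 2206 to 2433 CPM in OPC controls to 2594 to 2847 CPM in targeted OPCs, and from 8843 to 9159 CPM in differentiation controls to 10378 to 11262 CPM in targeted cells. The summed neuron markers were lower in every targeted library, at 1453 to 1735 CPM in OPC controls, 1303 to 1446 CPM in targeted OPCs, 2552 to 2660 CPM in differentiation controls and 1218 to 2389 CPM in targeted cells. The summed Schwann cell markers were lower too. In OPC medium they fell from 258 to 279 CPM to 185 to 223 CPM, and in differentiation medium from 316 to 335 CPM to 210.5 to 241 CPM. Among the 8 members tested, however, the median log2 response was -0.34 in OPC medium and 0.43 in differentiation medium. The lower sum in differentiation medium was thus not a fall of the list as a whole. The part of these shifts in the results above was not tested. Single astrocyte genes differed in level. Gfap was at most 6.02 CPM in any library, whereas Aqp4 was at most 9.11 CPM in OPC medium and at 5.53 to 47 CPM in differentiation medium. Of 17 neuron markers the neurofilament gene Ina was higher (0.50, edgeR adjusted p = 0.0359), a call that did not pass without 14 of the 17 libraries taken singly. The Ina responses of -0.26 in OPC medium and 0.24 in differentiation medium did not pass by themselves (edgeR adjusted p = 0.162 and 0.0654). Of 8 Schwann cell markers tested, Pou3f1, a transcription factor that is also expressed in progenitors of the oligodendrocyte lineage, was higher (0.94, edgeR adjusted p = 0.0135), and did not pass without differentiation control library A (edgeR adjusted p = 0.0536). Of 6 pluripotent cell markers, 5 fibroblast and pericyte markers and 2 microglia markers tested, 0 passed by edgeR, DESeq2 or limma-voom.

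Taken separately, guide 1 gave 93 genes past the test (0.648%), 52 higher (0.362%) and 41 lower (0.286%), and guide 2 gave 164 (1.14%), 72 higher (0.502%) and 92 lower (0.641%). Of the 239 genes, 56 passed with each guide by itself, and for all 239 both guides' own stage differences had the sign of the mean; the mean of both guides partly fixes that sign. The guides share their control libraries. The difference between the guides' stage differences passed for 0 genes by edgeR, with 1021 at an unadjusted p under 0.05, for 51 by DESeq2 and for 0 by limma-voom.

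Sorted cells, which are not part of the targeting experiment, gave an independent description of the genes. In magnetically sorted OPCs and O1+ oligodendrocytes, 3 libraries each, 5.32% of the 11655 genes tested that were also measured there were at least 4-fold higher in oligodendrocytes and 5.01% at least 4-fold higher in OPCs on the log2(TPM + 1) scale (limma). Among the genes with a higher stage difference these shares were 14.5% (18 of 124 measured) and 19.4% (24). Among those with a lower stage difference they were 27.4% (29 of 106) and 33% (35). The genes of the contrast thus more often differed at least 4-fold between the sorted cells, in either direction, than the measured genes at large, with no test of the shares. The 35 lower genes that were higher in sorted OPCs held all 9 mitosis genes past the test. Kif18b, E2f2, Mcm5 and Ccnd1 were also among them, so this share is not separate from the mitosis result. Genes with a lower stage difference also had longer spans, with a median of 39.85 kb and 27.5% of at least 100 kb, against 27.39 kb and 19.2% for the higher ones and 23.21 kb and 14.4% for all genes tested. The motif ACAAT occurred in 31% of 32851 RefSeq promoter entries of 300 bases. Counted by gene, with the motif in any entry of the gene, the share was 24.2% of the genes tested that have an entry. It was 19% of the higher and 20.9% of the lower genes. Among genes with 1 entry the shares were 20.3% of those tested, 18.1% of the higher and 16.2% of the lower genes.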

How the data were processed

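RNA was sequenced after poly(A) selection. For each medium the authors deposited a table of estimated counts by gene symbol with a table of TPM, and TPM for sorted cells; per the submitters' processing notes the tools were Salmon 0.14.1 and DESeq2 and the build was mm10. Annotation came from GENCODE (vM21) and RefSeq. The 17 count columns were joined on 35385 symbols, rounded to whole numbers and filtered with filterByExpr (minimum count 10, minimum total 15), which left 14352 genes. Counts were scaled by TMM and fitted with edgeR 4.0.16 in R 4.3.3 (quasi-likelihood, robust), with 1 coefficient for each of the 6 groups. The stage difference is an interaction contrast with the guides weighted equally. P-values are two-sided, were adjusted by Benjamini-Hochberg across the 14352 genes, and passed under 0.05. Standard errors are the absolute log2 value divided by the square root of F.

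Sorted cells were compared with limma 3.58.1 on log2 of the deposited TPM + 1, for genes of at least 1 TPM in at least 3 of 6 libraries. The procedure was tested on simulated data. DESeq2 1.42.0, limma-voom, other scalings and filters, an offset of effective transcript lengths (count over TPM), each guide alone, a joint guide coefficient and leaving out each library were tried; leaving out both uneven OPC controls was added after the data were seen. Named genes were the 10 largest stage differences in each direction past the threshold with at least 10 CPM in the highest group, genes of opposite response at that level, Sox6, Bcas1, Lima1, Nkain2, and up to 4 members past the threshold of each of 31 lists; predicted, mitochondrial and ribosomal protein genes were left out of the first parts. The members and lists were chosen with earlier results of these data known. Figures were drawn with matplotlib 3.10.9.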

Additional observations from a re-analysis of the deposited data

Results flagged for a closer look

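For the 59 named genes below the test of the difference itself found that the response to SOX6 targeting differed between the media; values are log2 stage differences, differentiation medium minus OPC medium, and no explanation was weighed. Some of the lower values belong to genes of the lineage: -1.79 for Mbp, -1.39 for Bcas1, -0.99 for Parvb, -0.52 for Sirt2 and -0.61 for the ligand Dll3. Genes of the cell cycle were also lower, with -1.36 for Kif18b, -1.22 for E2f2, -1.16 for Cdc25c, -1.02 for Mki67, -0.87 for Ccnd1, -0.86 for Kif23, -0.85 for Bub1b, -0.70 for the antiproliferative Btg2 and -0.68 for Mcm5. The other lower values were -1.75 for Rab7b, -1.63 for Dixdc1, -1.62 for Epha3, -1.42 for Lima1, -1.33 for Plcg2, -1.22 for Matn2, -1.09 for Rsad2, -0.82 for Opcml and -0.60 for Nell2.

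Higher values in lipid synthesis and transport were 0.31 for Fads2, 0.34 for Fads1, 0.45 for Dhcr7, 0.45 for Stard4 and 0.65 for Cyp51. Those of the integrated stress response were 0.62 for Slc3a2, 0.81 for Slc7a5, 0.84 for Chac1 and 1.22 for Trib3. Signalling genes gave 0.47 for Phlda1, 0.51 for Dll1, 0.54 for Spry4, 0.59 for Nrarp, 0.68 for Spry1, 1.09 for Unc5b, 1.51 for Ptpru, 2.54 for Chrm3 and 3.4 for Bmp2. Transcription factors and lineage genes gave 0.94 for Pou3f1, 1.13 for Sox13, 1.28 for Gpr17, 1.41 for Pcdh15 and 1.51 for Dmrta1. Genes of the cytoskeleton, adhesion and matrix gave 0.50 for Ina, 0.51 for Ctnna2, 0.63 for Sparcl1, 1.01 for Tubb6, 1.5 for Efhd2, 1.59 for Cntn3, 2.92 for Nkain2 and 7.16 for Col9a1. The remaining ones were 0.74 for Tdrd7, 1.43 for Sv2c, 1.6 for Pfkp, 1.66 for Prr5l and 2.80 for Galnt13.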

How the results depend on the processing

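No stage difference of the named genes changed sign under any of the 28 alternatives; of the 59 that passed, 9 passed under every one (Bcas1, Ccnd1, Efhd2, Lima1, Matn2, Nkain2, Slc7a5, Sox13 and Tdrd7) and 50 failed to pass under at least 1. The count of 239 genes was 488 with DESeq2, 89 with the length offset, 18 with guide 1 and control libraries alone, 451 with guide 2 and control libraries alone, and 45 (25 higher, 20 lower) without OPC control libraries A and C, an alternative added after the data were seen. With 1 library left out it lay between 112 (without differentiation control library A) and 650 (without guide 1 library B), and all 239 were among the 650. Scaling to library totals gave 249 genes, of which 86 were higher and 163 lower, against 130 and 109, and moved the median of all genes from 0.02 to -0.08. For OPC medium the 248 genes became 465 with DESeq2, 163 with the offset, 59 without controls A and C, and 148 to 735 with 1 library left out. For differentiation medium the 1607 genes became 1003 to 2454 with 1 library left out. For guide 1, the 93 genes became 367 with DESeq2, 42 with the offset, 18 without controls A and C, and 29 to 346 with 1 library left out. For guide 2, the 164 became 398, 76, 51, and 96 to 569. The 6 genes of opposite response became 15 with DESeq2, 3 with the offset (Ctnna2, Efhd2 and Nell2), 2 without a filter, 1 with guide 1 alone (Efhd2), 14 with guide 2 alone, 0 without controls A and C, and 2 to 23 with 1 library left out. Where samples were left out, fewer libraries entered; the cause of the other shifts was not tested. No paired analysis was possible because the count columns carry letters and none of the replicate numbers of the labels. With 2 or 3 libraries a group, genes with a group of few counts, such as Bmp2 in OPC medium and Col9a1 in differentiation controls, have wide intervals.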
